A study of Mus musculus with 4 samples.

Results

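Intermediate and type B spermatogonia (In/B) are the last mitotic generations of male germ cells before the preleptotene stage, at which the germline leaves the mitotic cycle and begins meiosis. The cells described here are In/B cells with high transcripts of G2 and M phase genes, and are called dividing below. Division itself was not observed. They were picked from single-cell RNA libraries of mouse testes by transcripts alone. A cell was kept when it had over 1000 detected genes and under 10% mitochondrial UMIs (unique molecular identifiers, which count captured transcripts). Among the cells kept, a member had at least 3 UMIs of the germ cell genes *Ddx4* and *Dazl* together, at least 3 UMIs of *Dmrtb1*, under 5 UMIs of *Stra8* per 10000, at most 1 UMI of *Gfra1* and *Ret* together, and a mitotic sum (*Plk1*, *Ccnb1*, *Ube2c* and *Cdc20* together) of at least 5 per 10000 UMIs. The rule found 1771 of 29592 cells. Of these, 540 and 472 came from the wild-type replicates 1 and 2, and 375 and 384 from the *Meioc*-null replicates 1 and 2.

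The 4 genes of the mitotic sum act one after another in G2 and M phase. *Ccnb1* encodes cyclin B1, the partner of CDK1 at mitotic entry, and *Plk1* encodes Polo-like kinase 1, which promotes entry and spindle assembly. *Cdc20* encodes an activator of the anaphase-promoting complex (APC/C), and *Ube2c* encodes the ubiquitin-conjugating enzyme with which that complex marks cyclin B1 for destruction. *Dmrtb1* encodes a DM-domain transcription factor of late differentiating spermatogonia, *Stra8* a retinoic acid-induced protein of the meiotic initiation, and *Gfra1* and *Ret* the GDNF receptor of undifferentiated spermatogonia. MEIOC, with its partners YTHDC2 and RBM46, binds RNA and is needed for germ cells to leave the mitotic programme. Dividing cells of the last mitotic generations before that step were compared between the genotypes. The rule does not separate intermediate from type B cells.

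Each library came from 1 testis of a C57BL/6N pup at postnatal day 15, and each of 2 batches held a littermate pair of a wild-type and a *Meioc*-null pup, so that replicate number, litter and batch are the same label and cannot be told apart. The *Meioc*-null pups carried the *Meioc* tm1.1Dpc allele on both chromosomes. Per the study's methods, pups of both genotypes were also heterozygous for *Hspa2* tm1Dix and homozygous for a *ROSA26* tdTomato reporter with its stop cassette intact. Where the deletion lies in *Meioc* was not determined here, and the 3′ tags may fall outside it, so *Meioc* counts do not check the genotype.

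Median UMIs per member ran from 25376 to 27786 over the 4 libraries, median detected genes from 5653 to 5799, and the members' UMIs summed to between 10347276 and 16558833 per library. In the libraries as a whole, 6334 to 8494 cells were kept. One barcode was found among the members of both wild-type replicate 1 and *Meioc*-null replicate 2, and 87 barcodes were shared by any pair of libraries among all cells kept. A doublet caller marked 9.81% and 16.3% of the members in the wild-type replicates and 10.9% and 8.85% in the *Meioc*-null replicates. These shares follow an assumed rate of 0.8% per 1000 barcodes, which marked 9.59% to 13.2% of the cells kept. The caller's own threshold marked 1.77% to 4.54% of the cells kept. Members marked at the assumed rate stayed in, and the effect of removing them is given with the results it changed.

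By differentiating and pachytene markers, the label held for most members and not for all. Of 9 markers of differentiating spermatogonia, 8 were at a UMI in at least 25% of members in every library. The 9 include *Dmrtb1*, which the rule requires in every member. Each of the 9 also passed this level in dividing undifferentiated germ cells (defined below), except *Dmrtb1* in *Meioc*-null replicate 1 (16.7%). The measure therefore does not tell those cells from the members. *Kit*, the receptor of the differentiating stage, stood at 137 and 154 CPM (UMIs of a gene scaled to a library total of 1000000) in all wild-type members and 187 and 174 CPM in all *Meioc*-null members. Against this, 104 of the 1012 wild-type members and 10 of the 759 *Meioc*-null members either had under 5 per 10000 of 8 differentiating markers (those listed for this stage except *Dmrtb1*) or had at least 5 per 10000 of 8 pachytene spermatocyte markers. In wild-type replicates 1 and 2 these were 57 and 47 cells, against 5 and 5 in the *Meioc*-null replicates. Both limits were missed by 30 and 34 of the wild-type cells and by 0 and 0 of the *Meioc*-null cells. The pachytene limit alone was passed by 23, 7, 2 and 3 cells, and these lay near that limit in most cases. The summed level of the pachytene markers over all members was 653 and 606 CPM in wild-type against 219 and 220 CPM in *Meioc*-null.

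The wild-type cells set apart in this way differed, taken as a group, from the other members. *Ldhc*, the germ cell lactate dehydrogenase and one of the 8 pachytene markers that set them apart, stood at 1248 and 975 CPM in them. *Rsph1*, a radial spoke protein of cilia and flagella and not among those markers, stood at 2036 and 2108 CPM. Their mitotic sum was made up differently, because *Cdc20* supplied 54.0% and 60.2% of it, compared with 25.8% and 23.2% in the other wild-type members. The centromeric histone gene *Cenpa* stood at 136 and 95.4 CPM in them and at 552 and 497 CPM in the others. The remaining 1657 cells (483, 425, 370 and 379 in the order wild-type replicates 1 and 2, *Meioc*-null replicates 1 and 2, which is kept below) are called spermatogonial members. The cells that miss either limit are called spermatocyte-marker cells, although some of them miss only the differentiating one. For the few *Meioc*-null cells the name is only a label. *Ldhc*, *Piwil1* and *Rsph1* stood at 0 CPM in them in both libraries, and *Kit* at 104 and 123 CPM. *Mns1*, another of the 8 pachytene markers, stood at 242 and 299 CPM. This separation was made after the values were seen, and genotype results are given with and without it.

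**Figure D1:**
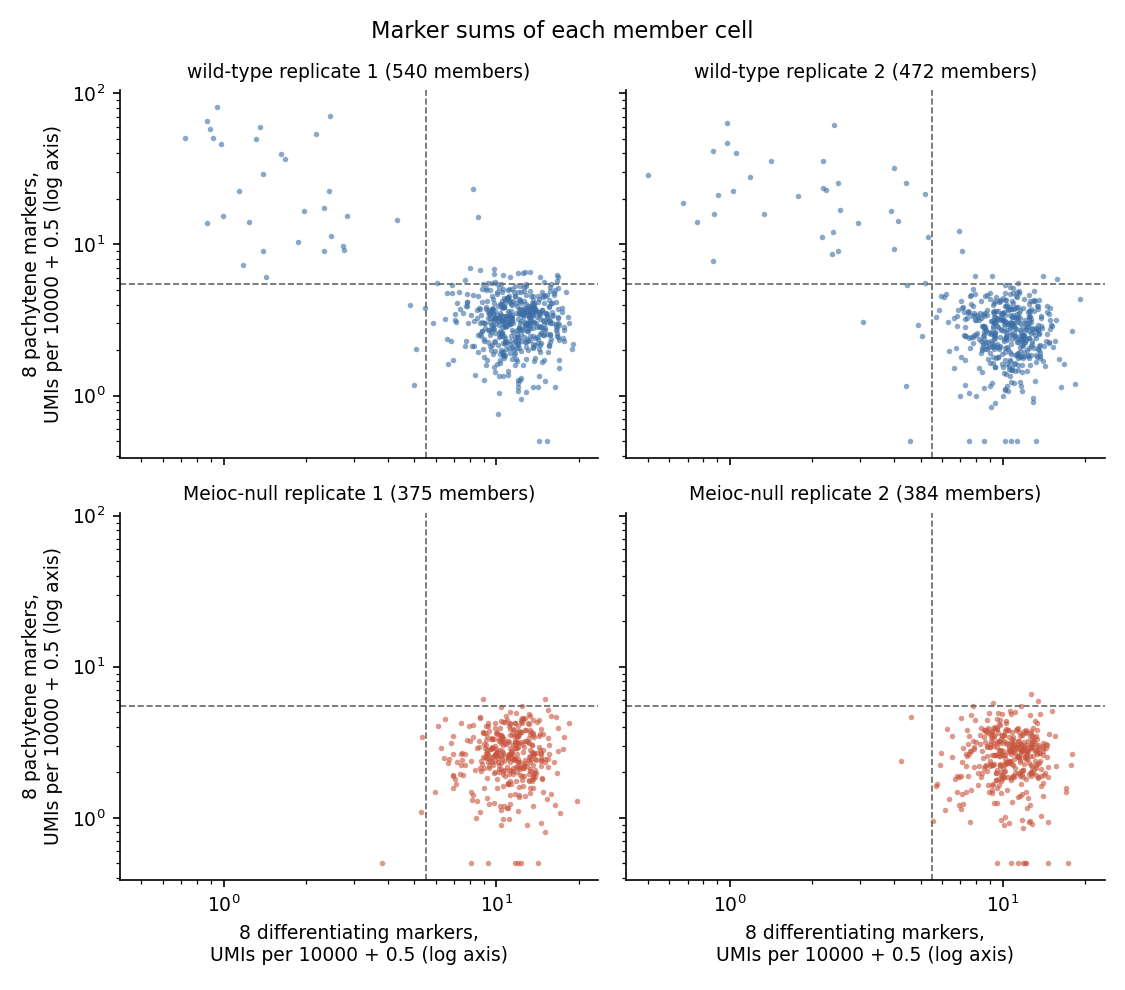
Each point is 1 member, placed by its summed differentiating-spermatogonium markers (without *Dmrtb1*) on the horizontal axis and its summed pachytene markers on the vertical axis, both per 10000 UMIs plus 0.5 on log axes, with 1 panel for each library and dashed lines at the limits of 5 per 10000. The upper left region, past both limits, holds 30 and 34 cells in the wild-type replicates and 0 in the *Meioc*-null replicates, and the lower right region holds the spermatogonial members.

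Markers of somatic cells were summed in the spermatogonial members. The 6 Leydig markers summed to 14 to 20 CPM, and the 6 macrophage markers to 1.66 to 11.5 CPM, with *Itgam* at 0 in every library. The 6 Sertoli markers summed to 120, 127, 117 and 59.8 CPM, and the 5 peritubular myoid markers to 88.4, 32.1, 74.4 and 127 CPM, against at least 797 and 9813 CPM in cells without *Ddx4* and *Dazl*. The 5 vascular endothelium markers summed to 48.7, 49.1, 67.1 and 52.2 CPM, against 151, 244, 180.1 and 271 CPM in cells without *Ddx4* and *Dazl*, and 1 of the 5 was at a UMI in 25% of the members of each library. Of the 7 markers of undifferentiated spermatogonia, 1 (*Zbtb16*) reached a UMI in 25% of the members of each library. Of 8 early spermatocyte markers, 5 did so in each library. These 8 summed to 721, 550, 600 and 559 CPM in spermatogonial members and to 1303, 1370, 602 and 560 CPM in all members. In cells without *Ddx4* and *Dazl* they summed to 150, 61.1, 96.2 and 42.2 CPM. The spermatogonial members thus also held early spermatocyte transcripts.

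The levels of the genes that chose the cells are a description. In spermatogonial members *Plk1* stood at 189, 173, 215 and 186 CPM, compared with 31.1, 34.8, 43.2 and 35.6 CPM in low-mitotic In/B cells, which meet every other condition and fall below the limit on the mitotic sum. *Ccnb1* stood at 390.1, 345, 419 and 352 CPM, *Ube2c* at 409, 387, 406 and 432 CPM, and *Cdc20* at 343, 274, 328 and 295 CPM. The mitotic sum was spread over all 4 genes in most cells: between 89.7% and 91.8% of spermatogonial members held a UMI of each of them. Cells lay close on both sides of the limit. In wild-type replicate 1, 88 cells lay at 4 to 5 per 10000 and 76 at 5 to 6, with *Mki67*, the proliferation marker, at 237 and 272 CPM. In wild-type replicate 2, 77 and 66 cells lay there, with *Mki67* at 350 and 248.7 CPM. The *Meioc*-null replicates held 60 and 42 cells, with *Mki67* at 442 and 475 CPM, and 61 and 52 cells, with *Mki67* at 364 and 374 CPM. The level was thus higher just inside the limit in 3 libraries and lower in wild-type replicate 2.

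Other genes were then ranked by their rise in the dividing cells. By the smallest of the 4 library ratios over low-mitotic In/B cells, among genes at 20 CPM or more, the 11 that followed the rule's 4 were *Aurka*, *Prr11*, *Cks2*, *Cenpa*, *Cdkn3*, *Hmmr*, *Fam83d*, *Tpx2*, *Kpna2*, *Arl6ip1* and *Aspm*. *Aurka*, the kinase of centrosomes and spindle poles, stood at 98.9, 89.2, 95.4 and 91.6 CPM in dividing cells and at 30.7, 25.4, 28.8 and 29.1 CPM in low-mitotic cells. *Tpx2*, its activator on spindle microtubules, stood at 327, 354, 379 and 371 CPM against 139, 168, 151 and 168 CPM. *Cenpa* stood at 552, 497, 535 and 497 CPM against 205, 190, 226 and 192 CPM. For these 3 genes, every library of dividing cells lay above every library of low-mitotic cells.

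The wider mitotic machinery was higher in the same way. Of 96 genes in 7 lists (cyclins and CDK1 control, mitotic kinases, the APC/C, kinetochores, kinesins and spindle, condensins, cytokinesis, without the rule's genes), 72 were higher in dividing cells in all 4 libraries and 14 were lower in all 4. At 20 CPM or more, 69 of 91 were higher and 13 lower, beside 27.1% higher and 30.8% lower over all 6304 genes at that level. The median log2 ratio of the 96 genes was 0.44, beside -0.01 over all 6304 genes. Kinesins and spindle genes had 20 of 23 higher, including *Hmmr* and *Tpx2*. Kinetochore genes had 14 of 18 higher, among them *Cenpe*, the centromere motor, at 416, 434, 505 and 448 CPM against 173, 224, 218 and 193 CPM, and *Cenpf* at 1299, 1422, 1551 and 1413 CPM against 620.4, 721, 751 and 655 CPM. The APC/C list was less uniform, with 7 of 12 higher and 4 lower. Its ubiquitin-chain enzyme *Ube2s* stood at 850.0, 808, 774 and 813 CPM against 478, 440.4, 387 and 450 CPM. The core subunit *Anapc2* stood between 91.8 and 97.4 CPM against 94.4 to 104 CPM, ranges that overlap.

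Genes of DNA replication ran the other way. All 25 genes of an S phase list were lower in dividing cells in all 4 libraries, with a median log2 ratio of -0.39. *Pcna*, the replication clamp, stood at 236, 219.9, 199 and 220.3 CPM against 337, 329, 292 and 326 CPM, and *Cdc6*, the loader of the replicative helicase, at 37.8, 32.8, 41.6 and 28.0 CPM against 74.3, 68.1, 84.5 and 60.8 CPM. Histone genes made up 8 of the 10 lowest ratios. *Hist1h2ap* stood at 385, 1579, 271 and 1241 CPM in dividing cells and at 1172, 4529, 1023 and 3870.05 CPM in low-mitotic cells, so that it differed more between the batches than between the groups of cells. Such histone genes are near-identical copies and their single counts are uncertain.

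**Figure D2:**
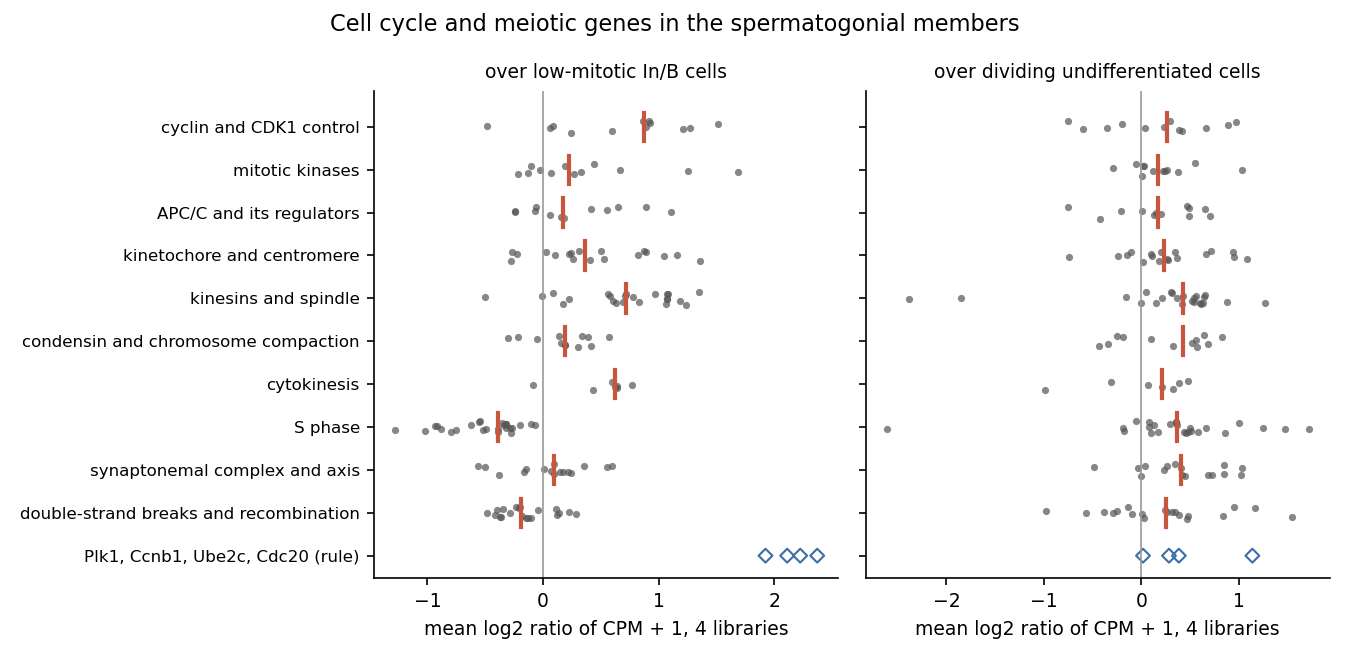
Each grey point is 1 gene, placed by its log2 ratio of CPM + 1 averaged over the 4 libraries, for spermatogonial members over low-mitotic In/B cells (left) and over dividing undifferentiated cells (right), with 1 row for each list, a red bar at the list median and blue diamonds for the rule's own genes. In the left panel most genes of the 7 mitotic lists lie above 0 and the 25 S phase genes all lie below it, and in the right panel the S phase median lies above 0, at 0.36.

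Genes of the mitotic lists were high in the same cells, so their promoters were read for short motifs known from G2/M genes. The core of the cell cycle genes homology region, TTTGAA, is contacted by the DREAM and B-MYB complexes, and CCAAT is the box bound by NF-Y. The 100 bases before the RefSeq transcript start (GRCm38.p6) of the rule's genes and of *Aurka* and *Prr11*, the 2 highest-ranked genes outside the rule, are shown 5′ to 3′ on the gene's strand, with both motifs in capitals in either orientation.
*Plk1* (chr7:122159335-122159434, plus strand): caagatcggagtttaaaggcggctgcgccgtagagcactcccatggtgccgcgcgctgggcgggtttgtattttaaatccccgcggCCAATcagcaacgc
*Ccnb1* (chr13:100786487-100786586, minus strand): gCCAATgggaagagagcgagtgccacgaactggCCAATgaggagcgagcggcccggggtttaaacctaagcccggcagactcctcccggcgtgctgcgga
*Ube2c* (chr2:164769829-164769928, plus strand): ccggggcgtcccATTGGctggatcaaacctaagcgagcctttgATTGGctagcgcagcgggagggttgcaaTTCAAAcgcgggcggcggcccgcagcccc
*Cdc20* (chr4:118437344-118437443, minus strand): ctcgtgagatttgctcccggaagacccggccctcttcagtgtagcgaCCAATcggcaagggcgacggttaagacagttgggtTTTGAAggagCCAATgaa
*Aurka* (chr2:172370571-172370670, minus strand): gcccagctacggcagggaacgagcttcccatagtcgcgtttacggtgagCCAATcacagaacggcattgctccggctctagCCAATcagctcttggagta
*Prr11* (chr11:87108715-87108814, minus strand): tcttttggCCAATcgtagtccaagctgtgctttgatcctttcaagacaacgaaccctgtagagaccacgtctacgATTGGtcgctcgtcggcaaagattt

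Each of the 6 held a CCAAT box in these 100 bases, and *Ube2c* and *Cdc20* also held the TTTGAA core there, starting 29 and 18 bases before the start. In *Plk1*, *Aurka* and *Prr11* the core lay downstream, at bases 31, 33 and 4 of the transcript. In *Ccnb1* these letters were not found in the window searched, from 250 bases before to 50 after the start. Over the mitotic lists together with the rule's genes, TTTGAA on either strand was in that window of 49 of 83 genes with a promoter sequence (59.0%), beside 18.1% of 27025 promoters in all and 2 of 22 S phase genes (9.09%). CCAAT was in 65.1% of the mitotic promoters, 59.1% of the S phase promoters and 37.9% of all. An E2F-like motif, GCGGGAA, was in 6.02% of the mitotic promoters, 45.5% of the S phase promoters and 4.66% of all. A match describes the letters and is not a measured binding site.

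Within the dividing cells, the level of the mitotic sum ordered other genes. Spermatogonial members were divided at 10 and 20 per 10000 UMIs into 3 bins. *Top2a*, the topoisomerase that decatenates chromosomes, read 746, 928 and 1454 CPM from the lowest to the highest bin in wild-type replicate 1 and 814, 980.0 and 1294 CPM in *Meioc*-null replicate 2, and the order was the same in the other two libraries. *Hmmr* read 87.9, 171 and 293 CPM in wild-type replicate 1. The S phase list fell along the bins in each library, from 4074 to 3193 CPM in wild-type replicate 1 and from 4245 to 3309 CPM in *Meioc*-null replicate 1 as summed levels. *Kit* was lowest in the highest bin of every library.

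*Meioc* itself was highest where the mitotic sum was highest. Its level in the 3 bins was 183, 223 and 393 CPM in wild-type replicate 1 and 141, 181 and 335 CPM in wild-type replicate 2. In the *Meioc*-null replicates, which still gave *Meioc* tags, it was 116, 199 and 364 CPM and 147, 169.96 and 338 CPM. *Rec8*, the meiotic cohesin subunit, followed the same order, from 17.3 to 49.8 CPM in wild-type replicate 1, 7.6 to 31.1 in wild-type replicate 2, 11.4 to 64.5 in *Meioc*-null replicate 1 and 16.4 to 44.5 in *Meioc*-null replicate 2. *Tex101*, a germ cell surface protein and a gene of the early spermatocyte list, was also highest in the top bin of each library. *Sycp3* did not share this order and was highest in the lowest bin in 3 of the 4 libraries (412, 381 and 395 CPM in wild-type replicate 2), and *Prdm9*, the histone methyltransferase of recombination sites, was highest in the top bin of 3 libraries, at 33.7, 33.5 and 36.7 CPM, and not in *Meioc*-null replicate 2, where it read 23.8, 28.9 and 24.2 CPM. The *Dmrtb1* level moved little by comparison, between 138 and 192 CPM over all 12 bins. The bins are cells of the same libraries and were ordered by the rule's own genes, so no test was made.

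**Figure D3:**
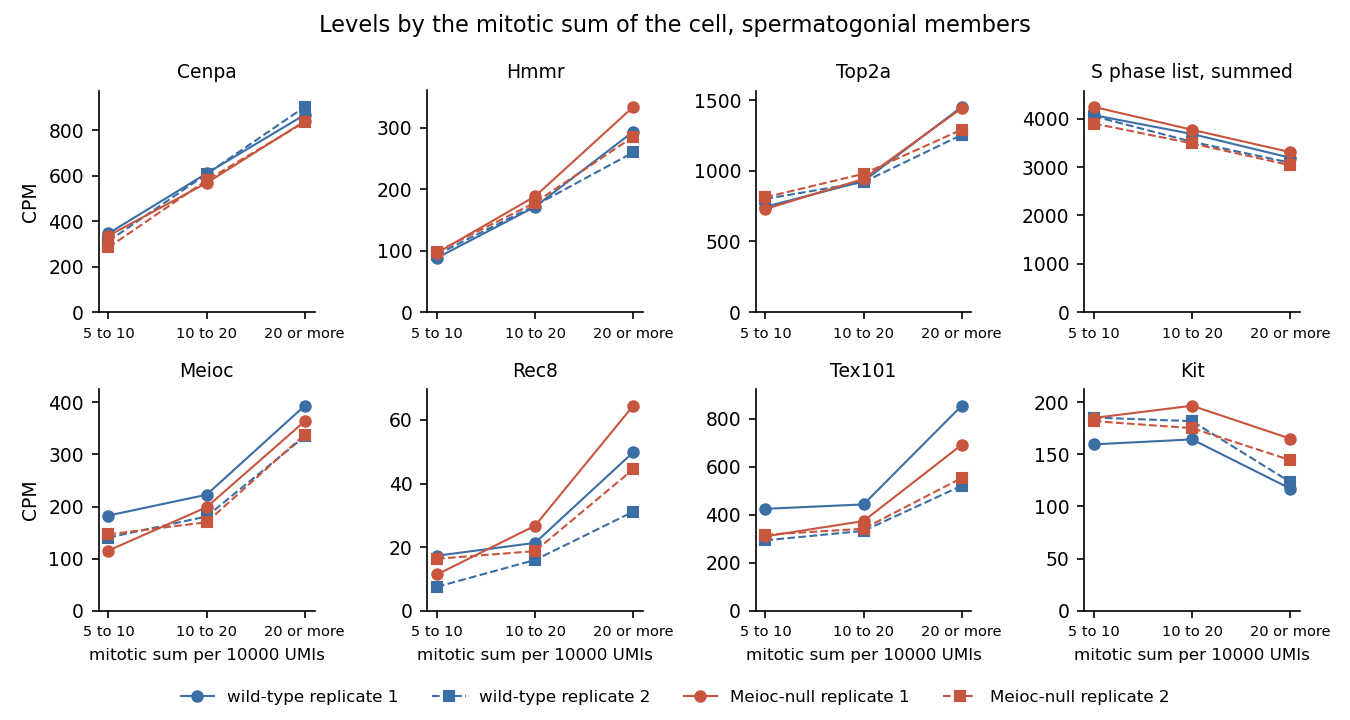
Levels in CPM are plotted against the 3 bins of the mitotic sum (5 to 10, 10 to 20, and 20 or more per 10000 UMIs), with 1 line for each library and 1 panel for each gene or list. *Meioc* ends at 335 to 393 CPM in the top bin of all 4 libraries, from 116 to 183 CPM in the lowest.

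Dividing In/B cells, here the spermatogonial members, were set beside dividing undifferentiated germ cells. The latter had the same mitotic limit and at least 2 UMIs of *Gfra1* and *Ret* (54, 65, 66 and 71 cells). The rule chose both groups, so the levels of its genes are a description. *Ccnb1* stood at 390.1, 345, 419 and 352 CPM in In/B and at 394, 359, 416 and 320.3 CPM in the undifferentiated cells, ranges that overlap. *Plk1* stood at 97.6, 79.5, 78.4 and 88.4 CPM in undifferentiated cells, 2.2-fold below In/B on average. *Ube2c*, at 354, 327, 324 and 335 CPM, and *Cdc20*, at 258, 228, 237 and 222 CPM, were also lower there in every library, 1.2-fold and 1.3-fold below In/B. Of the 96 mitotic genes, 58 were higher in In/B in all 4 libraries. At 20 CPM or more these were 56 of 93, beside 50.6% of 6630 genes, a share not far above that background. *Meioc* stood at 39.4, 44.3, 47.0 and 43.1 CPM in the undifferentiated cells, 4.4-fold lower than in In/B, and its partner genes *Ythdc2* and *Rbm46* were 2.7-fold and 2.0-fold lower there. *Kit* was 4.3-fold higher in dividing In/B cells. It is among the differentiating markers whose sum had to reach a limit in the spermatogonial members and not in the undifferentiated cells. Its difference is therefore a description. *Ccnd2*, cyclin D2, is also in the list of differentiating markers and went the other way. It stood at 7.3, 5.4, 7.9 and 10.6 CPM in In/B against 308, 297, 364 and 395 CPM, 39.6-fold lower.

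Wild-type and *Meioc*-null testes both held dividing In/B cells. Members made up 56.9% (95% exact binomial interval 53.7 to 60.1) and 52.6% (49.3 to 55.9) of In/B cells in the wild-type libraries. In the *Meioc*-null libraries they made up 60.2% (56.2 to 64.1) and 56.9% (53.1 to 60.7). The means were 54.8% ± 3.03 and 58.5% ± 2.34 (SD, n = 2 each), and the exact two-sided permutation test gave p = 0.667, where 2 libraries against 2 allow no p below 0.333. Within the batches the null share was 3.29 and 4.27 percentage points higher. The difference moved with the limits. At a mitotic limit of 3 per 10000 the means were 76.5% and 77.6%, and the null share was 0.53 points lower in batch 1 and 2.90 points higher in batch 2. At a mitochondrial limit of 5% the means were 53.4% and 66.8%, with the null share 12.9 and 13.9 points higher within the batches, and at a mitotic limit of 10 per 10000 they were 29.6% and 37.4% (exact permutation p = 0.333 at the 5% and at the limit of 10, and p = 1 at the limit of 3). Among spermatogonial cells alone the shares were 61.7%, 54.4%, 61.0% and 57.9%, and the order changed within batch 1. When In/B cells were thinned to 10000 UMIs each, leaving out the 9 or 10 shallower cells of each library, members were 61.5%, 55.6%, 65.0% and 62.6% of the 939, 888, 614 and 665 cells left. Of all cells kept, members were 8.53% and 5.56% in the wild-type libraries against 4.97% and 5.32%, an exact permutation p of 0.333. Wild-type replicate 1 alone stood apart there. The intervals cover counting error only.

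**Figure D4:**
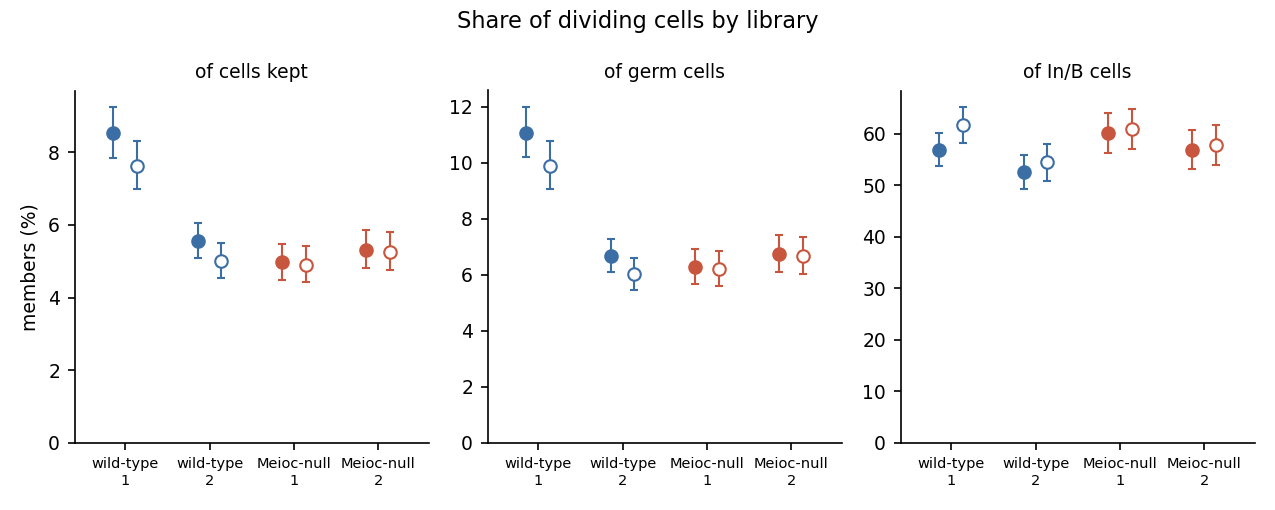
Shares of members are plotted in percent for each library with 95% exact binomial intervals, for all members (filled) and for spermatogonial members (open), with 1 panel for each denominator. As a share of In/B cells the libraries lie between 52.6% and 60.2% for all members, and as a share of germ cells wild-type replicate 1 lies highest at 11.1%.

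Gene levels were then compared between the genotypes, on UMIs summed over the members of each library. Genes were tested where 25% or more of the members of either genotype held a UMI. Of these 8097 genes, 408 (5.04%) passed edgeR's quasi-likelihood test at a Benjamini-Hochberg adjusted p under 0.05. The wild-type side held 393 (4.85%) and the *Meioc*-null side 15 (0.185%). At a mitotic limit of 10 per 10000, 0 of 8011 genes passed the same test, with 214 at an unadjusted p under 0.05. In order of p, the genes that led the wild-type side were *Ldhc*, *Rsph1*, *Tesmin*, *Meig1*, *Smim24*, *Piwil1*, *Ropn1l*, *Fabp9*, *Ybx2* and *Serf1*. *Ldhc* stood at 202 and 177 CPM in the wild-type libraries, against 0 and 0.17 CPM without *Meioc*. *Piwil1*, the piRNA-binding protein of pachytene cells, stood at 93.4 and 75.5 CPM against 6.5 and 5.7 CPM. The cells set apart above moved with this list: they gave a median of 48.0% of the wild-type UMIs of the 393 genes, against 13.4% over all genes tested.

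Without those cells, 4 of 8020 genes passed (0.0499%), all higher in wild-type. *Rsph1* stood at 17.8 and 17.6 CPM against 1.9 and 2.4 CPM, and its log2 fold change was 3.03 ± 0.24 (SE; adjusted p = 2.3e-05). *Meig1*, a protein of meiotic and spermatid cells, stood at 22.3 and 24.1 CPM against 6.0 and 6.3 CPM (1.93 ± 0.19, adjusted p = 0.000292). *Gm884* and *Fabp9* rose in wild-type with log2 fold changes of 2.06 and 1.73. The cells left out held 95.8%, 94.3% and 96.6% of the wild-type UMIs of *Rsph1*, *Meig1* and *Fabp9* among all members. For *Gm884* the share was 44.3%. The limits that set those cells apart were chosen after the values were seen. Whether these calls reflect a remainder of such cells within the limits was not tested. Over the alternatives the adjusted p of these 4 genes ranged from 3.1e-47 to 1.00. *Rsph1* did not pass once called doublets were removed (2 genes passed then), and *Meig1* and *Fabp9* did not pass at a mitochondrial limit of 5%. Each of the 4 passed without any 1 library. Of the 408 genes called with all members, 372 were tested here and 4 of those were called again.

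These 4 genes were also present in cells that should lack them. In cells without *Ddx4* and *Dazl*, *Rsph1* stood at 46.2, 19.9, 15.4 and 9.1 CPM, *Meig1* at 59.8, 28.3, 18.7 and 10.4 CPM and *Fabp9* at 34.2, 7.4, 0.13 and 0.14 CPM. A UMI of *Rsph1* was found in 27.2% and 15.0% of such cells in wild-type at median depths of 8463 and 8855 UMIs, and in 38.3% and 20.0% of spermatogonial members at 26209 UMIs in both. For *Rsph1*, *Meig1* and *Fabp9* the wild-type libraries of cells without *Ddx4* and *Dazl* lay above the *Meioc*-null ones, as in the dividing cells, and the part of free RNA in the result was not tested. *Gm884* had the same order at lower levels, with 3.0, 1.5, 0.90 and 0.57 CPM there against 12.5, 12.7, 2.3 and 3.7 CPM in the spermatogonial members. In dividing undifferentiated cells, both wild-type libraries also lay above both *Meioc*-null libraries for each of the 4 genes. In these cells *Gm884* stood at 31.4, 33.8, 14.4 and 18.6 CPM, above the spermatogonial members in every library. *Rsph1* stood at 18.9, 88.2, 5.0 and 5.6 CPM in them.

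Since the replicate number marks a littermate pair processed together, the same test was run with the pair as a block. It called 1911 genes among all members (23.6%), 1198 of them (14.8%) on the wild-type side, and 57 among spermatogonial members (0.711%). Of the 57, the wild-type side held 30 (0.374%) and the *Meioc*-null side 27 (0.337%). That fit leaves 1 degree of freedom between libraries and takes its spread largely from all genes together. Among the spermatogonial members' blocked calls, *Cox8a* and *Cox7b*, subunits of cytochrome c oxidase, *Mdh2*, mitochondrial malate dehydrogenase, and *Tfam*, the mitochondrial transcription factor, were higher in *Meioc*-null. *Timm10*, a mitochondrial import gene, was called on the wild-type side (log2 fold change 0.50 with the block). Without the block none of these genes passed. *Cox8a* stood at 326, 501, 515 and 684 CPM, so both *Meioc*-null libraries lay above both wild-type libraries, with log2 fold changes of -0.66 and -0.45 within the pairs. *Dut*, the dUTPase that guards replication, was higher in *Meioc*-null at 288 and 326 CPM against 216 and 204 CPM. *Fos* and *Egr1*, immediate early genes, and *Cmas* and *mt-Nd6* were called on the same side. On the wild-type side the block called *Piwil1*, *Tesmin*, *Ybx2*, *Hfm1*, *Basp1*, *Tmsb4x*, *Hist1h2ap*, *Gm21887* and *Gm47283*, beside the 4 genes above. *Piwil1* and *Tesmin* are among the 8 pachytene markers whose sum was limited to define these cells, so theirs are truncated ranges and their calls are a description. *Piwil1* stood at 23.2 CPM in wild-type replicate 1 and 5.7 to 7.6 CPM in the other libraries.

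On the *Meioc*-null side, *Stra8* had the lowest p, but the rule keeps only cells under 5 per 10000 UMIs of *Stra8*, so its levels are those of a truncated range and are given as a description. In the order of libraries they were 94.5, 93.2, 179.9 and 149 CPM over all members and 105, 105, 180.2 and 149 CPM in spermatogonial members. The other genes that led this side among all members were *Cmas*, *Mtap*, *Psd3*, *Cox7b*, *Nptn*, *Kif14*, *Gfod2*, *Arhgap11a* and *Crybg3*, with log2 fold changes from -0.68 to -0.44. None of them passed among spermatogonial members without the block.

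No gene of the mitotic lists passed between the genotypes once the spermatocyte-marker cells were left out, where few genes of any kind passed. Of the 94 tested genes in the 7 lists, 0 passed in edgeR with or without the block (3 at an unadjusted p under 0.05 without it), and 0 passed in DESeq2. Over all 8020 genes, 0.0499% passed in edgeR without the block, 0.711% with it, and 5 genes in DESeq2, so a count of 0 is near these shares. The list medians ran from -0.09 to 0.04 on the log2 scale. Among the kinesins, *Kif14*, which acts at the midbody, stood at 46.9, 42.6, 59.8 and 54.0 CPM, without passing. Both *Meioc*-null libraries lay above both wild-type libraries for 11 of 22 kinesin and spindle genes, beside 13.9% of all genes tested. The count was 26 of 94 over the 7 lists and 0 of 12 for the APC/C list. Both wild-type libraries lay above both *Meioc*-null libraries for 5 of the 94, beside 7.43% of all genes tested. With all members, *Kif14* and *Arhgap11a* passed on the *Meioc*-null side, beside 0.185% of all genes tested. The block then called 26 of the 94 genes higher in *Meioc*-null, beside 8.81% of all genes tested. It called 7 of them higher in wild-type, beside 14.8%.

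**Figure D5:**
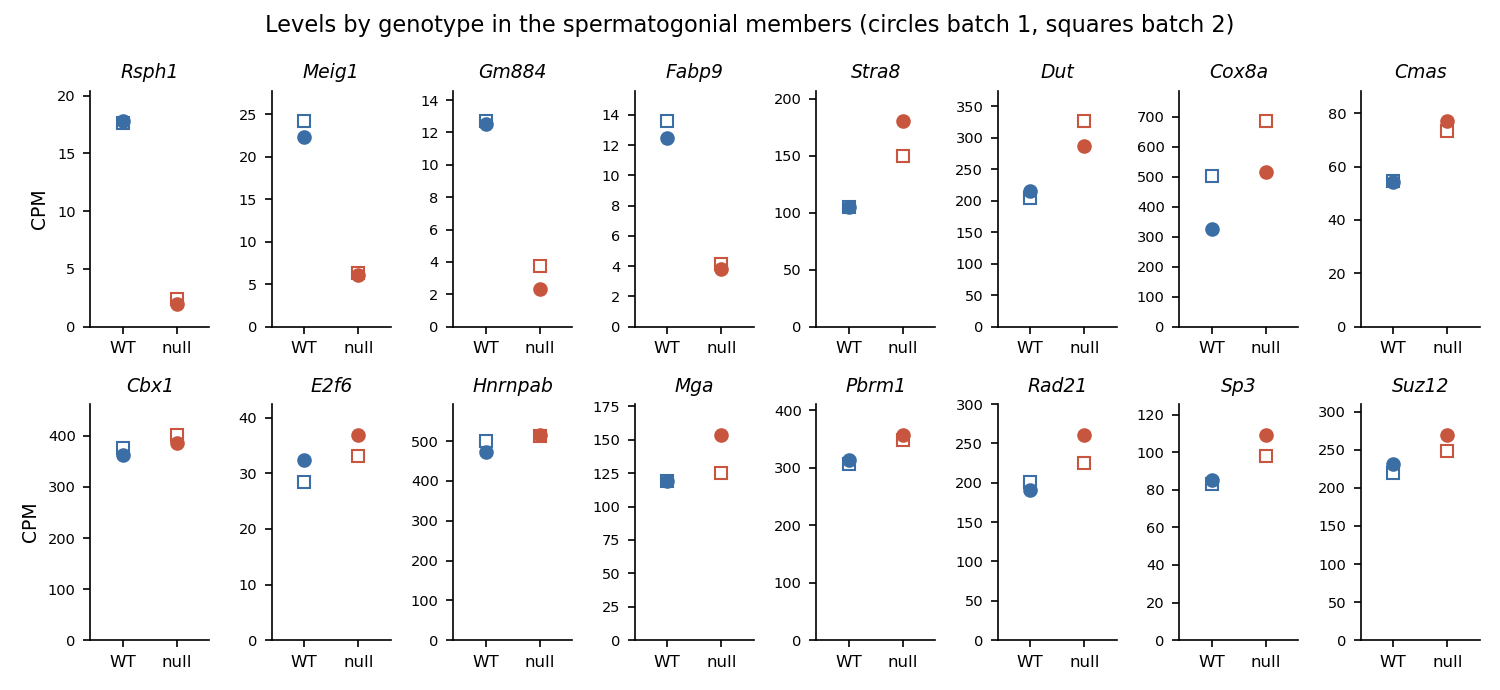
Levels in CPM in the spermatogonial members are plotted for 16 genes, with 1 panel for each gene, wild-type (WT) in blue and *Meioc*-null in red, and filled circles for replicate 1 and open squares for replicate 2. *Rsph1* lies at 17.8 and 17.6 CPM in wild-type against 1.9 and 2.4 CPM, whereas *Rad21* lies at 191 and 201 CPM against 261 and 225 CPM.

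The meiotic genes already transcribed in dividing cells were compared last. *Meioc* stood at 253 and 203 CPM against 199.6 and 179.5 CPM over all members, with a log2 fold change of 0.31 ± 0.11 that passed with the block (adjusted p = 0.000625) and not without it (0.183). In spermatogonial members it stood at 235 and 174 CPM against 198 and 179.9 CPM (0.14 ± 0.12), ranges that overlap, and did not pass in either fit. There *Ythdc2* was at 122, 122, 134 and 123 CPM and *Rbm46* at 271, 277, 283 and 286 CPM, with log2 fold changes of -0.05 ± 0.10 and -0.03 ± 0.12. Transcripts of the synaptonemal complex were present before meiosis, *Sycp1* at 787, 965, 709.9 and 847 CPM and *Sycp3* at 327, 396, 321 and 367 CPM. With all members 5 of 13 tested axis genes rose in wild-type (*Sycp2*, *Sycp3*, *Hormad2*, *Tex12* and *Hormad1*), beside 4.85% of all genes tested, and both wild-type libraries lay above both *Meioc*-null libraries for 11 of the 13, beside 18.6% of all genes tested. *Hormad1* (adjusted p = 0.0747) and *Tex12* (0.0533) did not pass without *Meioc*-null replicate 1, nor did *Hormad2* without that library (0.0564) or wild-type replicate 2 (0.0537). Among spermatogonial members 0 of 12 passed in edgeR (2 at an unadjusted p under 0.05) or in DESeq2, where 4 and 5 of all 8020 genes passed (0.0499% in edgeR). For 5 of 12, both wild-type libraries lay above both *Meioc*-null libraries, beside 7.43% of all genes tested. There *Sycp2* stood at 123 and 125 CPM against 107 and 106 CPM and *Hormad1* at 97.3 and 109 CPM against 75.2 and 101 CPM.

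A set of 8 repressor genes was chosen by the study. Their transcripts were bound by MEIOC, YTHDC2 and RBM46 in published binding data, and their proteins were annotated as repressors. They were also lower in wild-type at the In/B to preleptotene stages in these same libraries, so the direction of the set here is not independent evidence. In the dividing spermatogonial members, both *Meioc*-null libraries lay above both wild-type libraries for 8 of the 8, beside 13.9% of all genes tested. Of the 8, 0 passed in edgeR with or without the block (2 at an unadjusted p under 0.05 without it) or in DESeq2. Over all 8020 genes, 0.711% passed in edgeR with the block, 0.0499% without it, and 5 genes in DESeq2. *Rad21*, a cohesin subunit, stood at 191, 201, 261 and 225 CPM (-0.27 ± 0.12), and *Sp3*, a zinc-finger transcription factor, at 85.3, 83.1, 109 and 98.2 CPM (-0.27 ± 0.11). *E2f6* and *Mga*, subunits of the repressive complex PRC1.6, had log2 fold changes of -0.17 and -0.19. With all members *Rad21* passed, beside 0.185% of all genes on that side (-0.44 ± 0.11, adjusted p = 0.0404, range over the alternatives 1.7e-07 to 1.00). It did not pass without wild-type replicate 1 (adjusted p = 0.26), wild-type replicate 2 (0.0728) or *Meioc*-null replicate 1 (0.205), and the block called 6 of the 8, beside 8.81% of all genes on that side.

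The genotype effect in dividing cells was set against that in low-mitotic In/B cells, in a fit that kept each library as a block. With all cells, 463 of 8385 genes (5.52%) differed in their genotype effect. For 434 of them the log2 fold change, wild-type over *Meioc*-null, was lower in the dividing cells than in the low-mitotic ones. The low-mitotic cells held 109 and 69 spermatocyte-marker cells in wild-type against 11 and 15 in *Meioc*-null. After removal of called doublets 0 genes passed in edgeR, with 290 at an unadjusted p under 0.05. Without the spermatocyte-marker cells 2 of 8112 genes (0.0247%) passed, *Dennd5b* and *Tmsb4x*. *Dennd5b* stood at 102, 81.4, 78.6 and 86.0 CPM in dividing cells and at 101, 69.3, 140.3 and 128 CPM in low-mitotic cells, so that *Meioc*-null exceeded wild-type in the low-mitotic cells and overlapped it in the dividing ones. Its difference was -0.09 when the mitotic limit was 3 per 10000, and it did not pass without wild-type replicate 2.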

How the data were processed

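Whole-testis cells were profiled with 10x Chromium 3′ v3.1 chemistry. The authors aligned reads with Cell Ranger 4.0.0 to mm10 (GRCm38) and deposited unnormalised UMI counts per gene and barcode. Replicate number is the batch and littermate pair in the labels, and deviations of same-numbered libraries from their genotype means correlated at 0.564 over genes (all members). The study's doublet filter was not run. Scrublet (scanpy 1.11.5) was used as an alternative. Differentiating and pachytene markers were summed without *Dmrtb1* to define spermatogonial members. Counts were summed per library and tested with edgeR 4.0.16 (R 4.3.3; quasi-likelihood, TMM, no block), keeping genes with a UMI in 25% of cells of either genotype and calling an adjusted p under 0.05 with a log2 fold change beyond 0.1. Positive values are higher in wild-type. DESeq2 1.42.0, other filters and limits, leaving out libraries and the replicate block were alternatives. The members and lists were chosen with earlier results of these data known. Named genes were the rule's genes, list members (lowest p or highest level), the 10 of lowest p each way without and with the block and moving alike in both batches, the 5 of lowest p in the interaction, and the 15 with the largest ratio over low-mitotic cells. Other genes named were chosen after their values were seen. One called gene is not reported here. Code was tested on simulated data.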

Additional observations from a re-analysis of the deposited data

Results flagged for a closer look

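The genotype effect differed between dividing and low-mitotic In/B cells, by the interaction term, for 463 genes with all cells and for 2 genes among spermatogonial cells. The values below are differences of log2 fold changes (wild-type over *Meioc*-null), dividing minus low-mitotic, each from edgeR with the library as a block.

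Among spermatogonial cells the difference was 0.81 for *Dennd5b* (adjusted p = 1.0e-06) and 0.58 for *Tmsb4x*, which encodes thymosin beta-4, an actin-binding peptide (adjusted p = 0.000882). *Tmsb4x* stood at 113, 98.7, 91.4 and 68.4 CPM in dividing cells and at 88.5, 94.6, 117 and 89.5 CPM in low-mitotic cells. Over the alternatives the adjusted p ranged from 1.8e-12 to 1.00 for *Dennd5b* and from 0.000519 to 1.00 for *Tmsb4x*. Neither gene passed with called doublets removed. *Dennd5b* did not pass without wild-type replicate 2 (0.70, adjusted p = 0.0542), nor did *Tmsb4x* without wild-type replicate 1 (0.44, adjusted p = 0.808). The next 3 genes by p, *Ppip5k1*, *Sparc* and *Cdkn3*, did not pass.

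With all cells the 5 genes of lowest p were *Nek2* at -1.46, *Sord* at -2.44, *Mgll* at -1.58, *Sycp2* at -1.40 and *Stk39* at -2.08, each with an adjusted p of 0.0153. None of the 5 passed at a mitotic limit of 3 per 10000, with adjusted p from 0.201 to 0.754, or with called doublets removed, with an adjusted p of 0.739 for each, and all 5 passed without any 1 library. *Nek2*, the centrosomal kinase, stood at 107, 94.6, 111 and 89.5 CPM in dividing cells and at 113, 89.0, 42.7 and 34.2 CPM in low-mitotic cells. *Sord*, sorbitol dehydrogenase, stood at 46.4, 39.3, 22.5 and 19.2 CPM and at 245, 147, 18.2 and 17.96 CPM. For *Sord* the wild-type low-mitotic cells, which held 109 and 69 spermatocyte-marker cells, stood apart, at higher levels. For *Nek2* the *Meioc*-null low-mitotic cells lay lower than the wild-type ones with all cells. Without the spermatocyte-marker cells, *Nek2* stood at 37.8, 41.0, 42.9 and 35.7 CPM in low-mitotic cells, ranges that overlap. The part of the spermatocyte-marker cells was not tested gene by gene.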

How the results depend on the processing

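Among all members (408 genes), the count was 1911 with the replicate block, 645 with genes in 10% of cells, 1702 with no filter on detection, 775 at a mitotic limit of 3 per 10000, 0 at a limit of 10 (214 at an unadjusted p under 0.05), 1097 at a mitochondrial limit of 5% and 335 to 571 without 1 library. Among spermatogonial members (4 genes), it was 57 with the replicate block, 45 with the block and doublets removed, 85 with no filter on detection, 0 at a mitochondrial limit of 5% (157 at an unadjusted p under 0.05), 2 with doublets removed and 12 to 19 without 1 library. The difference in genotype effect (463 genes with all cells) went to 0 at a mitotic limit of 3 (689 at an unadjusted p under 0.05), 2410 at a limit of 10, 0 with doublets removed, 363 to 2653 without 1 library (2653 without wild-type replicate 2) and 2 with spermatocyte-marker cells left out. Among spermatogonial cells (2 genes) it was 4 with genes in 10% of cells and at a mitotic limit of 3, 0 with doublets removed (297 at an unadjusted p under 0.05) and 2 to 13 without 1 library. The null-minus-wild-type share of members among In/B cells, 3.78 percentage points, became 1.19 at a mitotic limit of 3 (-0.53 within batch 1), 7.85 at a mitotic limit of 10 and 13.4 at a mitochondrial limit of 5%, and lay between 1.64 and 5.92 without 1 library. The cause of these shifts was not tested. Of the values for single genes, 1461 kept their side of the threshold, 95 lost a call and 115 gained one. Another 2 changed direction and were called in 1 of the fits compared. These were *Dennd5b*, -0.095 at a mitotic limit of 3, and *Tmsb4x*, -0.051 with doublets removed. Both are differences of genotype effects among spermatogonial cells. Changes of direction in genes called in neither fit were not counted apart and fall among the 1461. The 2 libraries per genotype limit every genotype comparison, and the fits that leave out a library assume that the lone sample varies like the others.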
